A study of Mus musculus with 14 samples.

Results

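The transcripts described here encode 10 secreted or membrane-bound chemokines, 7 of the CC family (Ccl2, Ccl3, Ccl4, Ccl5, Ccl6, Ccl7 and Ccl12) and 3 of the CXC family (Cxcl1, Cxcl10 and Cxcl16). They were taken by gene symbol from the deposited table of counts, in which they are 10 of 13866 listed genes. All but Ccl7, 9 in all, are among the 11852 genes that passed the filter on low counts and were tested. Among the PBS libraries alone only 2 of them, Ccl5 and Cxcl10, passed this filter, so the other 7 were tested because of their level in groups given CBE, and the number that passed is itself tied to the response.

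The study asked which changes in the brain of a chemically induced mouse model of neuronal Gaucher disease depend on innate immune adaptors. Conduritol B-epoxide (CBE) irreversibly inhibits acid β-glucocerebrosidase, the lysosomal enzyme that degrades glucosylceramide, and was injected daily into the peritoneum at 100 mg/kg body weight; control mice received phosphate buffered saline (PBS). WT mice were C57BL/6JOlaHsd. MyTrMaSt null mice lack 4 adaptors in every cell: MyD88 (gene Myd88), TRIF (Ticam1), MAVS (Mavs) and STING (Tmem173). Brain RNA of mice aged 19 days was counted in 14 libraries, which made up 4 groups: WT + PBS (n = 3), WT + CBE (n = 3), MyTrMaSt + PBS (n = 3) and MyTrMaSt + CBE (n = 5).

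Chemokines are small chemotactic proteins that bind G protein-coupled receptors on leukocytes and set up gradients along which these cells move. In the brain they are made mainly by activated microglia, astrocytes and endothelial cells. The promoters of many chemokine genes are bound by NF-κB, and those of some, Cxcl10 and Ccl5 among them, also by interferon regulatory factors and STATs downstream of pattern recognition receptors and of the interferon receptor.

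Library totals ran from 1290616 to 3704691 counts, and WT + PBS replicate 1 was the smallest. Levels are counts scaled to library size (CPM), with library sizes corrected by the trimmed mean of M values (TMM), and 1 count is worth 0.264 to 0.903 CPM. The libraries hold tags from transcript 3' ends, so levels of different genes can be set side by side without dividing by length. All 4 deleted genes still gave counts in MyTrMaSt libraries, where 3' tags can lie outside a deleted part and then check nothing. Myd88 was 3.94 CPM in MyTrMaSt + PBS against 13.4 in WT + PBS (adjusted p 0.0603, edgeR), and 7.30 in MyTrMaSt + CBE against 25.0 in WT + CBE (adjusted p 0.000294, edgeR). Tmem173 was not lower: it was 6.09 CPM in MyTrMaSt + PBS against 1.69 in WT + PBS (adjusted p 0.101, edgeR), and 9.17 against 7.11 with CBE (adjusted p 0.965, edgeR). Ticam1 and Mavs were not called between genotypes, with adjusted p of 0.581 and 0.656 with PBS and 0.982 and 0.791 with CBE (edgeR), so Myd88 with CBE was the 1 call between genotypes among the 4 genes with all libraries. Without MyTrMaSt + CBE replicate 4, 1 of the 4 was also called lower with PBS. The background strain of the MyTrMaSt null mice is not given in the sources used here, so differences between genotypes that come from the adaptors and from the strain cannot be told apart. Xist, transcribed in females, had 0 counts in every WT + PBS library and in MyTrMaSt + CBE replicate 4, 1 to 47 in WT + CBE and 18 to 46 in the other MyTrMaSt libraries, so the sexes were not balanced between groups.

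The genes fall into clusters on the genome (build GRCm38). Ccl2, Ccl7 and Ccl12 lie within 67.8 kb on chromosome 11, and Ccl5, Ccl6, Ccl3 and Ccl4 within 139 kb further along the same chromosome. Cxcl16 lies elsewhere on chromosome 11, and Cxcl1 and Cxcl10 lie on chromosome 5. The RefSeq promoter table (GRCm38.p6) held an entry for 5 of the 10, namely Ccl12, Ccl3, Ccl6, Cxcl1 and Cxcl10. Ccl2, Ccl4, Ccl5, Ccl7 and Cxcl16 had none. In the 250 bases before each start, both strands were searched for the κB consensus and for the interferon-stimulated response element written as GAAANNGAAA, where N is any base. Of 32851 windows of that length in the table, 3.9% held a κB match, 2.98% held a GAAANNGAAA match and 0.122% held both. The 4 windows below are those of the chemokine that was most abundant in WT + CBE (Cxcl10, chr5:92348890-92349139, minus strand), of Cxcl1 (chr5:90890995-90891244, plus strand) and of a pair that was not called lower in MyTrMaSt + CBE (Ccl3, chr11:83649379-83649628, minus strand, and Ccl6, chr11:83593088-83593337, minus strand). Each is written 5′ to 3′ and ends at the base before the start that RefSeq gives, which for Ccl3 and Cxcl1 differs by some bases from that of the GENCODE annotation used for the gene positions, and capitals mark the matches.
Cxcl10: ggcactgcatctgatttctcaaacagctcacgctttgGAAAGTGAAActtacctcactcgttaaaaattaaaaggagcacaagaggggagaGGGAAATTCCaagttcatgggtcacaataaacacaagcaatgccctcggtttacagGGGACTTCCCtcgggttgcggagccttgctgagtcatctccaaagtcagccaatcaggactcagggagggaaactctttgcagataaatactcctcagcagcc
Cxcl1: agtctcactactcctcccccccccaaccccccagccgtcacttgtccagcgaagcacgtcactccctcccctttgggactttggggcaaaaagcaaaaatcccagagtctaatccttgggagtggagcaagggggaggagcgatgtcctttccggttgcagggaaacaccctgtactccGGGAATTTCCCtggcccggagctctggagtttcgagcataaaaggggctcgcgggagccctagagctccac
Ccl3: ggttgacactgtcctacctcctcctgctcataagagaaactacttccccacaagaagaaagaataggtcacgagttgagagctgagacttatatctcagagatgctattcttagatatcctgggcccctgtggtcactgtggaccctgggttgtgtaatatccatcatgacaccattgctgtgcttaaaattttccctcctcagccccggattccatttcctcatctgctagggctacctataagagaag
Ccl6: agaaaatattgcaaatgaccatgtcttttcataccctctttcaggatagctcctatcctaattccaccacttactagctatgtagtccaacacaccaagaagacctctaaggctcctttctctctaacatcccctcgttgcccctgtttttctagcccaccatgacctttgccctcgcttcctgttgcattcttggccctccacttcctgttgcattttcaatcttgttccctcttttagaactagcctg
The Cxcl10 window held 1 GAAANNGAAA match, at -213 to -204, and 2 κB matches, at -159 to -150 and -103 to -94. The Cxcl1 window held a κB match on the plus strand at -71 to -62 that overlaps one on the minus strand at -70 to -61. The windows of Ccl3, Ccl6 and Ccl12 held neither, and Ccl12, unlike Ccl3 and Ccl6, was called lower in MyTrMaSt + CBE than in WT + CBE. A match describes the letters of the window and does not show that a factor binds there.

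In WT mice, CBE raised 8 of the 9 tested chemokines past both thresholds for a differentially expressed gene (DEG), a change of 2-fold or more and an adjusted p under 0.05. By the same rule 5.2% of all 11852 genes were higher and 1.21% were lower. No tested chemokine was lower, by edgeR, DESeq2 or limma voom, and none had a negative fold change at an unadjusted p below 0.05. The CBE and PBS libraries did not overlap for the same 8 genes, against 15.1% of all genes that lay higher without overlap. In MyTrMaSt mice 6 of 9 rose (background 3.23% higher and 0.658% lower), none fell by these tools or at an unadjusted p below 0.05, and 7 lay higher without overlap (background 11.8%). Between the CBE groups, 6 of 9 were lower in MyTrMaSt mice (background 1.93% lower and 0.0759% higher), none was higher, and the same 6 did not overlap (background 6.02%). The median log2 fold change of the 9 was 5.21 in WT, 3.24 in MyTrMaSt and -2.73 between the CBE groups, where the medians over all tested genes were -0.02, 0.01 and 0.02. These comparisons share groups: the WT + CBE libraries enter both the WT response and the difference between CBE groups. When Xist was added to the model as a covariate, the 3 comparisons again gave 8, 6 and 6 calls. Within groups, Xist varied mainly through WT + CBE replicate 2 (1 count) and MyTrMaSt + CBE replicate 4 (0 counts). The covariate can therefore hardly separate sex from group. In bulk tissue, fewer cells of a type and less RNA per cell cannot be told apart.

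**Figure D1:**
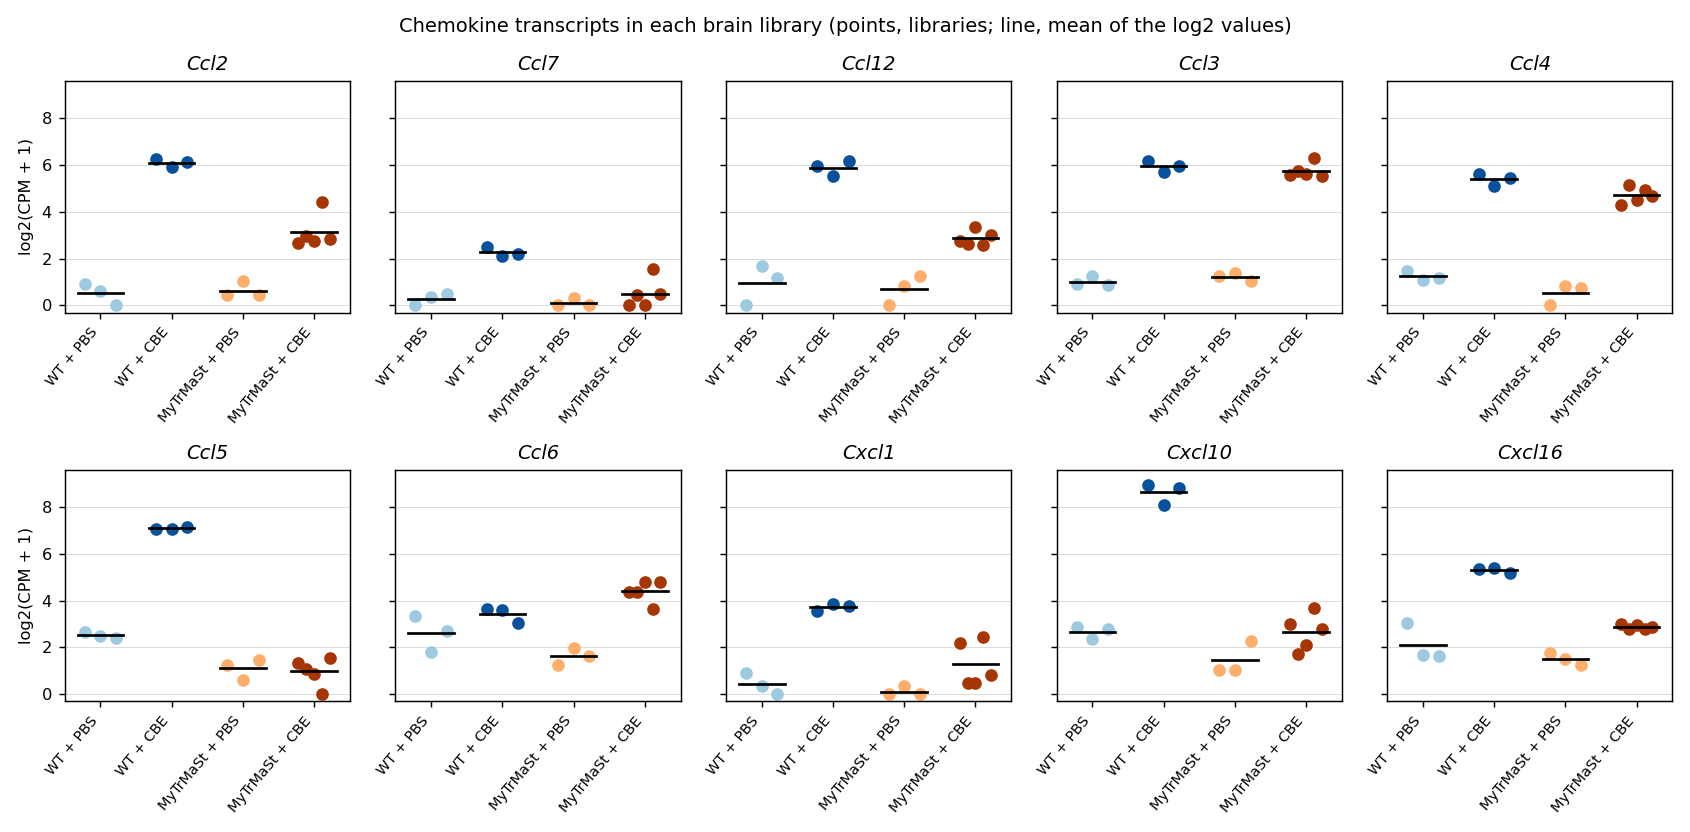
Level of each chemokine in each of the 14 libraries as log2(CPM + 1), with points for libraries and a line for the mean of the log2 values of the group. Ccl3 and Ccl4 in MyTrMaSt + CBE sit near or within the WT + CBE range, Ccl5 in MyTrMaSt + CBE overlaps MyTrMaSt + PBS, and Ccl6 is highest in MyTrMaSt + CBE.

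Ccl5 and Cxcl10, which recruit T cells and NK cells and are textbook interferon-inducible genes, differed most between the CBE groups. Ccl5 measured 5.42, 4.70 and 4.22 CPM in WT + PBS replicates 1 to 3 and 134, 135 and 140 CPM in WT + CBE. It measured 1.38, 0.528 and 1.76 CPM in MyTrMaSt + PBS and 1.56, 1.13, 0.811, 0 and 1.96 CPM in MyTrMaSt + CBE replicates 1 to 5. The WT + CBE libraries lay far above all others, and the MyTrMaSt + CBE libraries overlapped MyTrMaSt + PBS. The rise in WT mice was 4.85 on the log2 scale (SE 0.310, adjusted p 3.40e-09 by the edgeR quasi-likelihood test with Benjamini-Hochberg adjustment). In MyTrMaSt mice the change was -0.03 (95% interval -1.21 to 1.15, adjusted p 0.990, edgeR). The level in MyTrMaSt + CBE was 0.870% of that in WT + CBE (95% interval 0.487% to 1.55%, adjusted p 5.61e-11, edgeR). MyTrMaSt + CBE replicate 4 held 0 counts of Ccl5, where 3 counts, the upper limit that a count of 0 allows, equal 1.48 CPM.

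Cxcl10 was the most abundant of the 10 in WT + CBE. It measured 6.32, 4.14 and 5.91 CPM in WT + PBS and 498, 272 and 454 CPM in WT + CBE. In MyTrMaSt mice it measured 1.04, 1.06 and 3.88 CPM with PBS and 7.01, 2.25, 3.24, 11.8 and 5.87 CPM with CBE. The MyTrMaSt + CBE libraries overlapped both PBS groups and none came near WT + CBE. The log2 fold change was 6.29 in WT (SE 0.447, adjusted p 1.37e-08, edgeR) and 1.59 in MyTrMaSt (SE 0.586, 95% interval 0.36 to 2.83, adjusted p 0.0844, edgeR). With DESeq2 the change in MyTrMaSt passed the threshold (adjusted p 0.0195), as it did in edgeR without WT + PBS replicate 1 (adjusted p 0.0474) or without MyTrMaSt + CBE replicate 2 (adjusted p 0.0488). Without MyTrMaSt + PBS replicate 3, the highest of its group, it was 2.44 and missed the threshold. Of 22 alternatives, 19 left the change in MyTrMaSt uncalled, and its log2 value ran from 0.804 to 2.44. The level in MyTrMaSt + CBE was 1.45% of that in WT + CBE (95% interval 0.866% to 2.415%). Exons of Art3, on the other strand, overlap those of Cxcl10, and the strand setting of the counting is not given in the sources used here. Art3 had 4.82 to 13.1 CPM in WT + CBE and 5.09 to 10.9 CPM in MyTrMaSt + CBE.

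The change of these genes with CBE differed between genotypes. The genotype by CBE interaction, the log2 response in MyTrMaSt minus that in WT, was -4.885 for Ccl5 (SE 0.641, adjusted p 0.00310, edgeR) and -4.696 for Cxcl10 (SE 0.737, adjusted p 0.0111, edgeR). These were 2 of 9 tested chemokines with a negative interaction past the threshold, where 0.413% of all genes had one. For Cxcl10 the call was lost without MyTrMaSt + PBS replicate 3 (-3.86, adjusted p 0.336) and with the Xist level as a covariate (-4.72, adjusted p 0.0668). For Ccl5 it was lost when libraries were thinned to the smallest (-4.86, adjusted p 0.123).

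**Figure D2:**
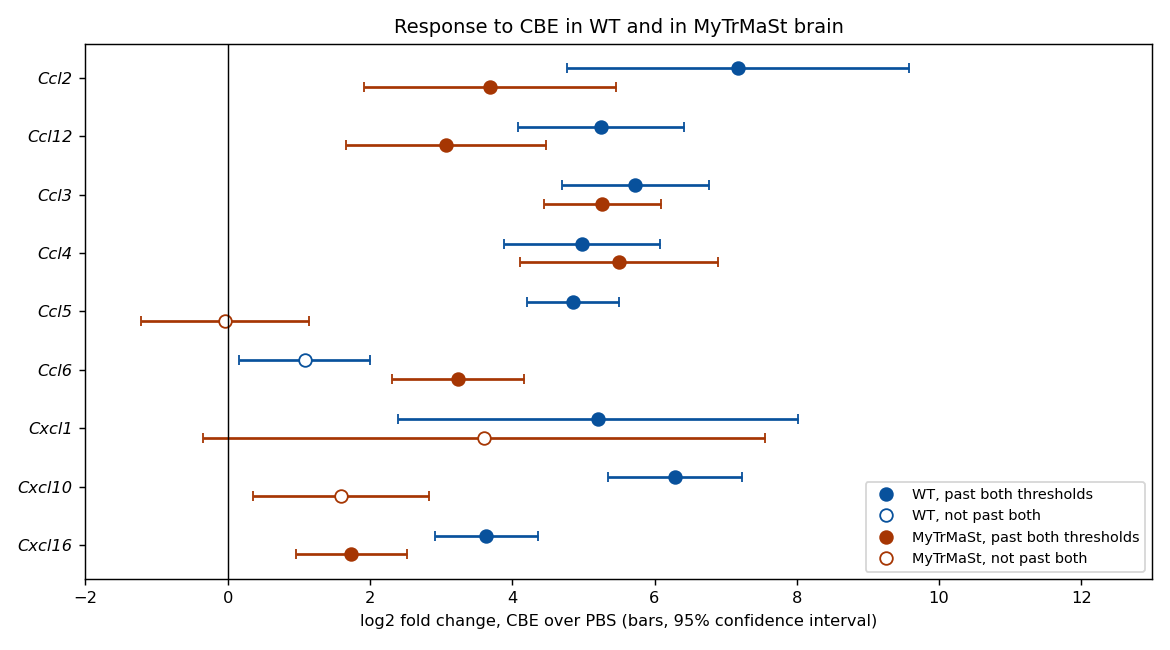
Log2 fold change of CBE over PBS for the 9 tested chemokines in WT (blue) and MyTrMaSt (brown), with 95% confidence intervals and filled points where both thresholds were passed. The intervals of the genotypes are apart for Ccl5, Cxcl10, Cxcl16 and Ccl6, and overlap for the other 5, while the test of the difference itself passed for Ccl5 and Cxcl10.

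The ligands of CCR2, Ccl2, Ccl7 and Ccl12, which draw monocytes, were raised by CBE in WT and were lower in MyTrMaSt + CBE than in WT + CBE. Ccl2 had 1, 2 and 0 counts in WT + PBS and 75.1, 59.6 and 68.7 CPM in WT + CBE. In MyTrMaSt mice it had 1, 4 and 1 counts with PBS and 5.46, 6.76, 5.67, 20.7 and 6.26 CPM with CBE. The MyTrMaSt + CBE libraries lay above both PBS groups and below WT + CBE, with replicate 4 well above the other 4. From 3 counts in WT + PBS, the pooled ratio in WT was 163-fold with a counting interval of 55.6 to 795, and the fitted log2 value of 7.17 (adjusted p 1.87e-07, edgeR) depends on the prior count. In MyTrMaSt the log2 fold change was 3.69 (SE 0.842, adjusted p 0.00105, edgeR), and 4.46 without MyTrMaSt + PBS replicate 2, which held 4 of the 6 counts. The level in MyTrMaSt + CBE was 12.8% of WT + CBE (95% interval 7.94% to 20.65%, adjusted p 5.72e-06, edgeR).

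Ccl12 measured 0, 2.21 and 1.27 CPM in WT + PBS and 61.1, 45.1 and 72.3 CPM in WT + CBE. In MyTrMaSt it had 0, 3 and 4 counts with PBS and 5.84, 5.26, 9.32, 4.92 and 7.05 CPM with CBE. Like Ccl2, the gene was intermediate in MyTrMaSt + CBE, with no overlap on either side. It rose by 5.25 in WT (SE 0.557) and 3.06 in MyTrMaSt (SE 0.669, adjusted p 0.00133, edgeR) on the log2 scale, and the level in MyTrMaSt + CBE was 11.04% of WT + CBE (95% interval 7.19% to 16.9%). Without WT + PBS replicate 2 the WT value was 6.05, and without MyTrMaSt + PBS replicate 3 the MyTrMaSt value was 3.73. The interactions of Ccl2 (-3.48, 95% interval -6.47 to -0.49, adjusted p 0.327, edgeR) and Ccl12 (-2.18, 95% interval -4.01 to -0.35, adjusted p 0.367, edgeR) missed the threshold. That of Ccl2 was -2.72 without MyTrMaSt + PBS replicate 2, and that of Ccl12 was -2.98 without WT + PBS replicate 2 and -1.52 without MyTrMaSt + PBS replicate 3, with no call in any of these.

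Ccl7 was too low for the filter, with 0, 1 and 1 counts in WT + PBS and 16, 7 and 6 counts in WT + CBE. In MyTrMaSt mice it had 0, 1 and 0 counts with PBS and 0, 1, 0, 4 and 1 with CBE. The WT + CBE libraries were above all others. The pooled ratio was 14.2-fold in WT (counting interval 3.60 to 123) and 4.65-fold in MyTrMaSt (counting interval 0.564 to 214). In a fit of all 13866 listed genes, Ccl7 rose in WT (log2 3.60, adjusted p 0.0108, edgeR) and was lower in MyTrMaSt + CBE than in WT + CBE (log2 -2.89, adjusted p 0.0162, edgeR).

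Ccl3 and Ccl4, encoding the macrophage inflammatory proteins MIP-1α and MIP-1β, rose in both genotypes and were not called different between the CBE groups. Ccl3 measured 0.903, 1.38 and 0.844 CPM in WT + PBS and 71.0, 52.1 and 62.1 CPM in WT + CBE. In MyTrMaSt it measured 1.38, 1.58 and 1.06 CPM with PBS and 47.1, 52.6, 48.6, 78.8 and 45.0 CPM with CBE. Both CBE groups lay far above the PBS groups and overlapped each other. The log2 fold change was 5.73 in WT (SE 0.492, adjusted p 4.05e-09, edgeR) and 5.27 in MyTrMaSt (SE 0.392, adjusted p 1.71e-08, edgeR). The level in MyTrMaSt + CBE was 87.5% of WT + CBE, with a 95% interval from 66.8% to 115% (adjusted p 0.984, edgeR), and the interaction was -0.46 (95% interval -1.79 to 0.86, adjusted p 0.770, edgeR).

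Ccl4 had 2, 4 and 3 counts in WT + PBS and 48.0, 33.8 and 42.8 CPM in WT + CBE. In MyTrMaSt mice it had 0, 3 and 2 counts with PBS and 18.7, 34.2, 21.9, 30.03 and 24.7 CPM with CBE. The CBE groups overlapped through a single library, replicate 2 of MyTrMaSt + CBE, which exceeded the lowest WT + CBE library. The rise was 4.98 in WT (SE 0.521) and 5.50 in MyTrMaSt (SE 0.660, adjusted p 1.09e-07, edgeR). The MyTrMaSt + CBE level was 62.0% of WT + CBE (95% interval 45.05% to 85.35%, unadjusted p 0.00528, adjusted p 0.155, edgeR), so the interval lies below equality while the adjusted test missed the threshold. Without WT + PBS replicate 1 the adjusted p was 0.0459 (log2 -0.705, edgeR), short of the 2-fold threshold. The interaction was 0.52 (95% interval -1.25 to 2.29), and it ran from 0.0316 to 1.93 over the alternatives without a call.

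Ccl6, a macrophage chemokine and ligand of CCR1, rose in MyTrMaSt and was not called in WT. It measured 9.03, 2.49 and 5.48 CPM in WT + PBS and 11.4, 11.3 and 7.23 CPM in WT + CBE, and these groups overlapped. In MyTrMaSt mice it measured 1.38, 2.91 and 2.11 CPM with PBS and 19.9, 19.9, 26.8, 11.3 and 27.0 CPM with CBE. The MyTrMaSt + CBE libraries all lay above MyTrMaSt + PBS, and 4 of 5 exceeded every WT + CBE library. The log2 fold change was 3.24 in MyTrMaSt (SE 0.441, adjusted p 2.99e-05, edgeR) and 1.08 in WT (SE 0.436, adjusted p 0.125, edgeR). The WT change passed without WT + PBS replicate 1, the smallest library, in which Ccl6 was highest of its group (1.45, adjusted p 0.0289). The MyTrMaSt + CBE level was 207% of WT + CBE (95% interval 129.5% to 330.1%, adjusted p 0.130, edgeR), and it passed without MyTrMaSt + CBE replicate 4 (log2 1.19, adjusted p 0.0305), without WT + PBS replicate 1 (1.03, adjusted p 0.0356) and when only the CBE groups were fitted (1.04, adjusted p 0.0455). The interaction was 2.16 (SE 0.620, unadjusted p 0.00248, adjusted p 0.177, edgeR), the only positive one besides that of Ccl4, and passed with DESeq2 (2.24, adjusted p 0.0391) or without WT + PBS replicate 2 (2.65, adjusted p 0.0491).

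Cxcl1, a neutrophil attractant that binds CXCR2, and Cxcl16, a transmembrane chemokine that binds CXCR6 and is shed from the cell surface, were both lower in MyTrMaSt + CBE than in WT + CBE. Cxcl1 had 1, 1 and 0 counts in WT + PBS and 37, 29 and 21 counts in WT + CBE. In MyTrMaSt mice it had 0, 1 and 0 counts with PBS and 9, 1, 1, 9 and 2 with CBE. The WT + CBE libraries stood above all others, and the MyTrMaSt + CBE libraries split into a pair at 9 counts and 3 at 1 or 2. The pooled ratio was 42.7-fold in WT (counting interval 11.5 to 358) and 17.1-fold in MyTrMaSt (counting interval 2.76 to 704, adjusted p of the fitted change 0.0523, edgeR). The fitted log2 change in WT was 5.21, and 5.86 without WT + PBS replicate 1. The change in MyTrMaSt passed with DESeq2 (adjusted p 0.0281) and without WT + PBS replicate 1, MyTrMaSt + CBE replicate 2 or MyTrMaSt + CBE replicate 3 (adjusted p 0.0225, 0.0352 and 0.0375). Of 21 alternatives, 17 left it uncalled, and its fitted log2 value of 3.60 ran from 2.58 to 5.21. The level in MyTrMaSt + CBE was 15.1% of WT + CBE (95% interval 7.11% to 32.2%, adjusted p 0.00170, edgeR), a call lost in libraries thinned to the smallest (log2 -2.36, adjusted p 0.121).

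Cxcl16 measured 7.22, 2.21 and 2.11 CPM in WT + PBS and 39.9, 40.8 and 35.5 CPM in WT + CBE. In MyTrMaSt it measured 2.42, 1.85 and 1.41 CPM with PBS and 7.01, 6.01, 6.89, 5.91 and 6.26 CPM with CBE. The MyTrMaSt + CBE libraries lay close together, above MyTrMaSt + PBS and far below WT + CBE. The gene rose by 3.63 in WT (SE 0.344, adjusted p 2.05e-07, edgeR) and by 1.74 in MyTrMaSt (SE 0.370, adjusted p 0.00398, edgeR), and its level in MyTrMaSt + CBE was 16.65% of WT + CBE (95% interval 11.8% to 23.5%). The interaction was -1.89 (95% interval -2.96 to -0.83, adjusted p 0.151, edgeR) and passed without WT + PBS replicate 1, where Cxcl16 was highest of its group (-2.40, adjusted p 0.0101). Exons of Zmynd15, on the other strand, overlap those of Cxcl16, and Zmynd15 had 2.82 to 5.24 CPM in WT + CBE and 0 to 2.03 CPM in MyTrMaSt + CBE.

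**Figure D3:**
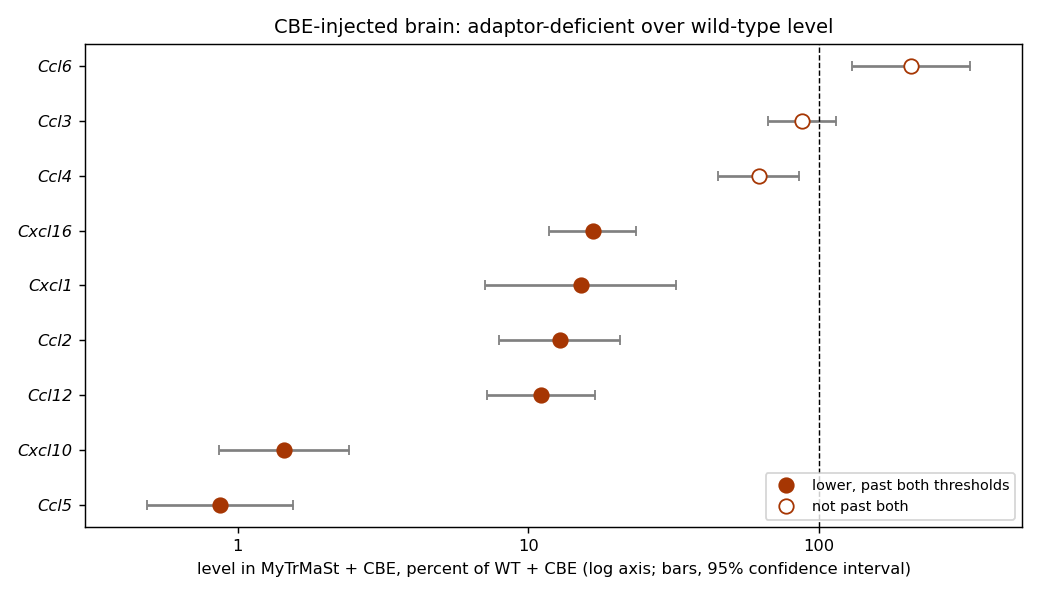
Level of the 9 tested chemokines in MyTrMaSt + CBE as a percent of WT + CBE on a log axis, with 95% confidence intervals and a dashed line at equality. Ccl5 and Cxcl10 lie near 1%, Ccl12, Ccl2, Cxcl1 and Cxcl16 between 11.04% and 16.65%, and Ccl4, Ccl3 and Ccl6 between 62.0% and 207%.

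Without CBE, no tested chemokine differed between genotypes by the DEG rule, which 0.16% of all genes met. By edgeR 3 of the 9 (Ccl5, Cxcl10 and Ccl6) had an unadjusted p below 0.05, as did 16.8% of all genes, DESeq2 called 1 and limma voom 0. The largest of these differences was that of Ccl5, 4.78 ± 0.602 CPM (SD, n = 3) in WT + PBS and 1.22 ± 0.631 (SD, n = 3) in MyTrMaSt + PBS, with no overlap (log2 -1.96, 95% interval -3.02 to -0.90, adjusted p 0.0994, edgeR). DESeq2 called it (adjusted p 0.0178), as did edgeR without MyTrMaSt + CBE replicate 4 (adjusted p 0.0499). Cxcl10 was 5.46 ± 1.15 CPM (SD, n = 3) and 1.99 ± 1.63 (SD, n = 3), also without overlap (log2 -1.42, adjusted p 0.267, edgeR, and log2 -2.25 without MyTrMaSt + PBS replicate 3). Ccl6 was 5.665 ± 3.27 CPM (SD, n = 3) and 2.13 ± 0.763 (SD, n = 3), with overlap (log2 -1.11, adjusted p 0.292, edgeR). For the others, PBS levels were mostly within a few counts of 0, and the intervals are wide, from -5.84 to 3.61 on the log2 scale for Cxcl1.

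The make-up of the chemokine transcripts differed between the CBE groups. In WT mice the 10 genes summed to 24.4 ± 7.05 CPM with PBS and 840 ± 153 CPM with CBE (SD, n = 3 each). In MyTrMaSt mice they summed to 10.6 ± 2.41 CPM with PBS (SD, n = 3) and 133 ± 21.3 CPM with CBE (SD, n = 5). In WT + CBE, Cxcl10 made up 47.9% ± 6.15 of the sum and Ccl5 16.6% ± 3.22 (SD, n = 3), while Ccl3 made up 7.39% ± 0.462, Ccl4 4.96% ± 0.172 and Ccl6 1.23% ± 0.445. In MyTrMaSt + CBE, Ccl3 made up 40.6% ± 3.77, Ccl4 19.5% ± 4.11 and Ccl6 16.5% ± 6.13 (SD, n = 5), while Cxcl10 made up 4.41% ± 2.21 and Ccl5 0.887% ± 0.613. The ranges of these shares did not overlap between the CBE groups for any of these 5 genes. In WT + CBE the order of mean levels after Cxcl10 and Ccl5 was Ccl2, Ccl3, Ccl12, Ccl4, Cxcl16, Cxcl1, Ccl6 and Ccl7. Ranges overlapped among Ccl2, Ccl3 and Ccl12, between Ccl12 and Ccl4, between Ccl4 and Cxcl16, and between Cxcl1 and Ccl6.

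**Figure D4:**
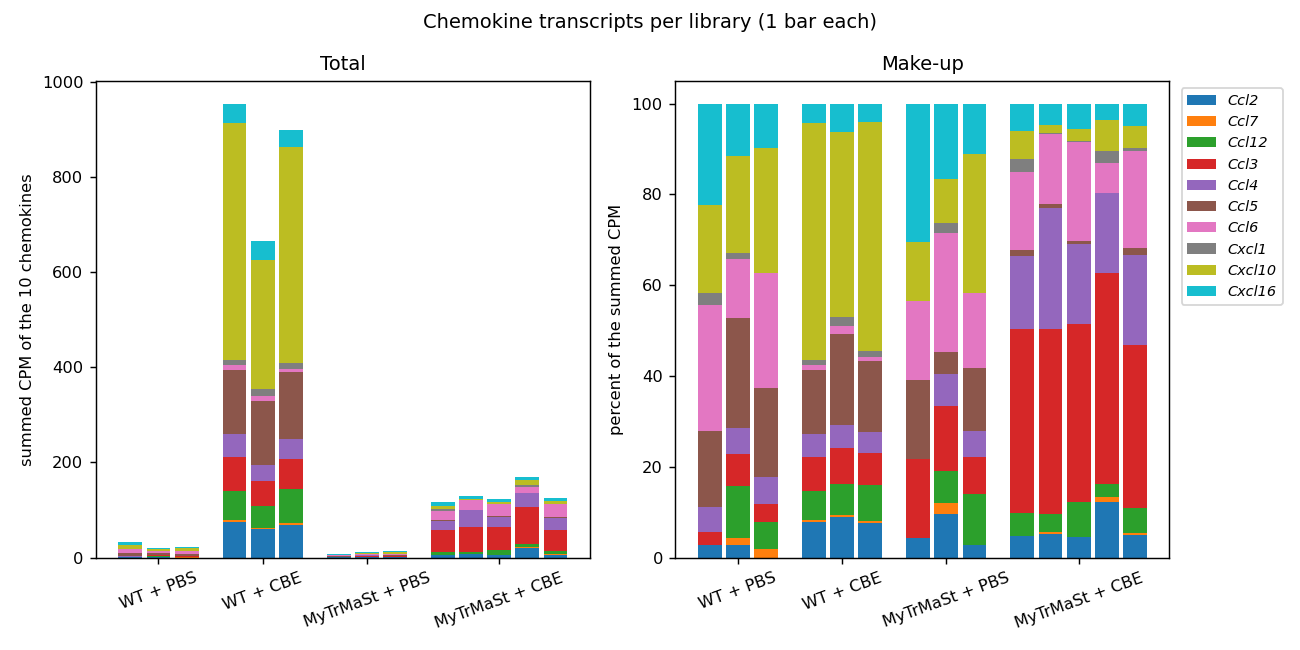
Summed CPM of the 10 chemokines in each library (left) and the percent of that sum from each gene (right), with 1 bar for each library. Cxcl10 and Ccl5 fill most of the WT + CBE bars, and Ccl3, Ccl4 and Ccl6 most of the MyTrMaSt + CBE bars.

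The genes whose pattern over the 4 group means was most like that of a chemokine were found by the root mean square difference of centred mean log2 CPM, over all tested genes, and the 3 nearest outside the 10 chemokines are given with the nearest of the 10. Nearest to Ccl3 were Lgals3 (galectin-3, 0.397 log2 units), Serpina3n (a reactive astrocyte gene, 0.432) and Lilrb4a (a myeloid receptor, 0.449), while Ccl4 was at 0.488. Nearest to Ccl5 were the interferon-stimulated genes Ifit1 (0.266), Oasl2 (0.314) and Usp18 (0.321), with Cxcl10 at 0.715. Nearest to Ccl2 were Ptx3 (pentraxin 3, 0.263), Timp1 (a metalloproteinase inhibitor, 0.368) and Lilr4b (0.465), with Ccl12, nearer than all but Ptx3, at 0.297. With CBE, Lgals3 measured 427 ± 60.9 CPM in WT (SD, n = 3) and 176 ± 34.9 CPM in MyTrMaSt (SD, n = 5). Ifit1 measured 156 ± 19.6 CPM in WT (SD, n = 3) and 1.12 ± 0.736 CPM in MyTrMaSt (SD, n = 5).

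Of 28 further chemokine ligands, 12 were listed and 8 tested. Ccl19, a homing chemokine for T cells and dendritic cells, rose in WT (log2 2.76, adjusted p 0.00150, edgeR) and was lower in MyTrMaSt + CBE than in WT + CBE (log2 -2.84, adjusted p 0.000525, edgeR). Ccl17, a ligand of CCR4, rose in MyTrMaSt (log2 1.91, adjusted p 0.00442, edgeR) and had 0.94 in WT (adjusted p 0.170). The other 6 passed the DEG rule in no comparison. Short of 2-fold, Ccl27a fell in WT (log2 -0.874, adjusted p 0.000833, edgeR) and in MyTrMaSt (-0.59, adjusted p 0.0101, edgeR). Cx3cl1 fell in WT (-0.563, adjusted p 0.0411, edgeR), and none of the 6 rose at an adjusted p under 0.05. Of 23 chemokine receptors, 7 were listed and 5 tested, and Cx3cr1, the microglial fractalkine receptor, rose in WT (log2 1.85, adjusted p 0.000448) and in MyTrMaSt (1.08, adjusted p 0.0185, edgeR). Ccr1, Ccr2, Cxcr2, Cxcr3 and Cxcr6 were not analysed here. No receptor gene was called between genotypes.

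Of 25 genes of signalling behind these receptors, 19 were tested, and 6 rose in WT, 3 rose in MyTrMaSt and 2 were lower in MyTrMaSt + CBE than in WT + CBE. Dock2 (a Rac activator), Ncf1 (an NADPH oxidase subunit) and Rgs1 (a regulator of G protein signalling) rose in both genotypes, Rgs1 by 4.80 and 3.93 on the log2 scale. Rgs1 had at most 2 counts in any PBS library, so its fitted values (SE 1.42 in each genotype) depend on the prior count. Lyn, a Src family kinase of myeloid cells, and Was (an actin regulator) rose in WT, and Lyn was lower between the CBE groups (-1.07, adjusted p 0.00146, edgeR). Without WT + PBS replicate 1, 5 of 20 rose in MyTrMaSt. Of 4 tested genes for proteases that shed or trim chemokines, Mmp14 rose in WT (log2 1.84, adjusted p 0.00247, edgeR) and no other was called.

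Among 10 tested genes of NF-κB and AP-1, 4 rose in WT, 3 in MyTrMaSt, and 1, Relb, was lower in MyTrMaSt + CBE than in WT + CBE (log2 -1.03, adjusted p 0.0452, edgeR). Bcl3, an IκB family co-activator, rose by 3.98 in WT and 2.89 in MyTrMaSt, and Nfkb2 by 2.07 and 1.12. Nfkbia, the IκBα inhibitor that is itself an NF-κB target, rose by 1.06 and 1.003. Between the CBE groups, Nfkbia (-0.785, adjusted p 0.00755) and Bcl3 (-0.939, adjusted p 0.0415, edgeR) were also lower in MyTrMaSt, short of 2-fold. Nfkb2 differed by -1.004 (adjusted p 0.0556, edgeR), and no gene of this list was called higher. Without WT + PBS replicate 1 or without MyTrMaSt + CBE replicate 4, 2 genes of this list were lower between the CBE groups, and without the latter 2 rather than 3 rose in MyTrMaSt. Among 10 tested IRF and STAT genes, 7 rose in WT, 2 in MyTrMaSt (Irf5 by 1.79 and Irf8 by 1.96), and 6 were lower in MyTrMaSt + CBE than in WT + CBE (5 without MyTrMaSt + CBE replicate 4). Irf7, which amplifies interferon induction, rose by 4.73 in WT, had 1.14 in MyTrMaSt (adjusted p 0.203, edgeR) and differed by -5.99 between the CBE groups. Among the interactions that passed the threshold were those of Irf7 (-3.59), Irf9 (-2.33) and Stat2 (-1.70), the last 2 encoding factors through which type 1 interferons act. Irf1 rose by 1.48 in WT and differed by -1.46 between the CBE groups.

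**Figure D5:**
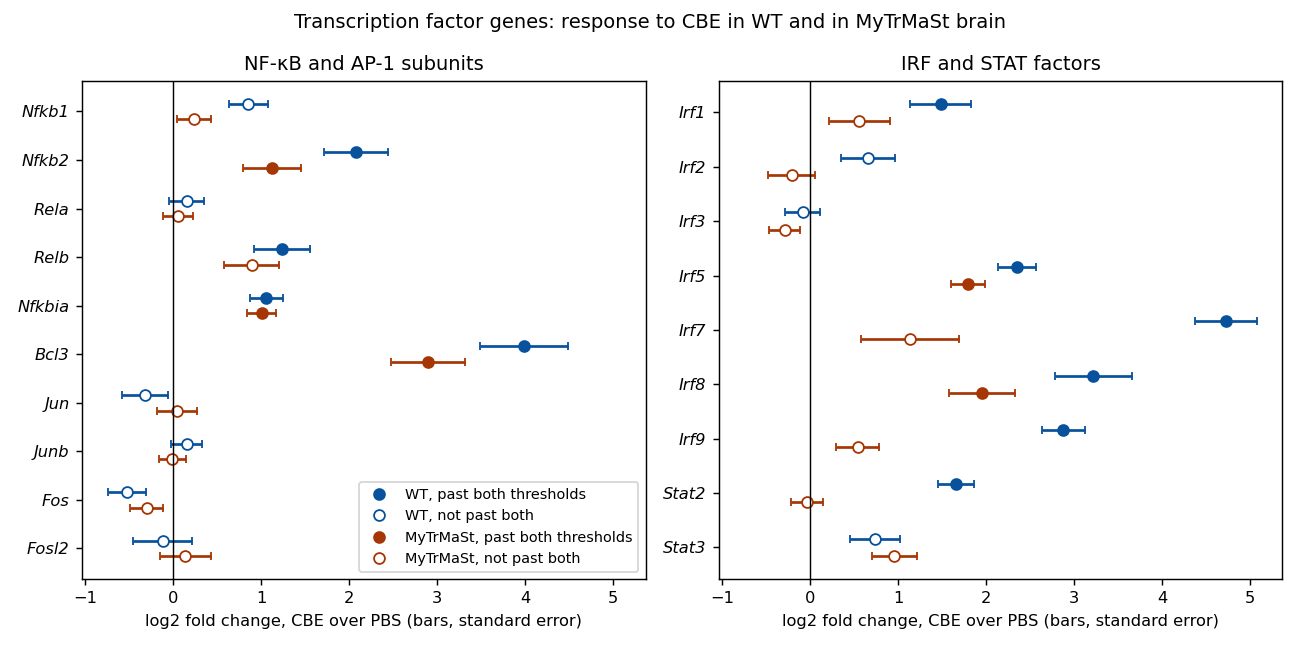
Log2 fold change of CBE over PBS for the tested NF-κB and AP-1 genes (left) and for 9 of the tested IRF and STAT genes (right) in WT (blue) and MyTrMaSt (brown), with standard errors and filled points where both thresholds were passed. Bcl3, Nfkb2 and Nfkbia have filled points in both genotypes, and Irf7, Irf9 and Stat2 in WT alone.

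Markers of cell types moved with CBE as well. Of 12 microglia markers 11 were listed and tested, 6 rose in WT and 4 in MyTrMaSt, and their summed level was between 277 and 354 CPM with PBS and between 748 and 910 with CBE in WT. In MyTrMaSt it was between 294 and 319 CPM with PBS and between 559 and 650.0 with CBE. Aif1 was the only one lower in MyTrMaSt + CBE than in WT + CBE (log2 -1.60, adjusted p 0.000364, edgeR). Of 8 astrocyte markers, 2 (Aqp4 and Gfap) rose in WT and 1 (Gfap) in MyTrMaSt, Gfap by 3.31 on the log2 scale in each, and with CBE their sum was between 4189 and 4573 CPM in WT and between 4537 and 4979 in MyTrMaSt. Of 6 border macrophage markers 5 were tested, Ms4a7 and Lyve1 rose in WT, and Ms4a7 was lower in MyTrMaSt + CBE (log2 -3.64), and with CBE their sum was between 44.0 and 55.0 CPM in WT and between 16.1 and 30.03 in MyTrMaSt. Blood monocyte markers, 3 of 7 listed, summed with CBE to between 12.51 and 15.5 CPM in WT and between 5.87 and 13.8 in MyTrMaSt, with F13a1 up in WT (log2 2.14, adjusted p 0.0226, edgeR) and Chil3 at 0 in both PBS groups. Neutrophil markers, 2 of 8 listed, summed to at most 5.67 CPM in any library. T and NK cell markers, 4 of 12 listed, summed with CBE to between 9.86 and 18.7 CPM in WT and between 6.65 and 10.1 in MyTrMaSt, with none called unless WT + PBS replicate 1 was left out, when 1 was lower in MyTrMaSt. Neuronal markers were tested for 8 of 8 and 1 (Slc17a7) fell in WT, a call lost without WT + PBS replicate 1, and endothelial markers for 5 of 6 and 1 fell in MyTrMaSt. Oligodendrocyte markers were tested for 6 of 6, with none past the DEG rule. All 6 had a negative log2 fold change in WT, 5 of them with an adjusted p under 0.05 but short of 2-fold, from -0.998 for Mag (adjusted p 0.0140) to -0.66 for Mobp (adjusted p 0.00781, edgeR). In WT their sum was between 16661 and 19985 CPM with PBS and between 10079 and 13102 with CBE, without overlap, and in MyTrMaSt between 16485 and 19777 with PBS and between 12393 and 16616 with CBE, where none had an adjusted p under 0.05. The part of these cell types in the chemokine levels was not tested.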

How the data were processed

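The authors made bulk MARSseq libraries of brain RNA, 1 per mouse, sequenced them on an Illumina instrument, mapped the reads to mm10 with hisat and kept uniquely mapped reads. The submitters' processing notes also name cutadapt and HTSeq. Annotation, strand setting and use of molecular identifiers are not given in the sources used here. The deposited table holds whole raw counts per gene, and all values here start from it. A normalized table and a table of the authors' own fold changes, p values and adjusted p values were not used.

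The test was that of edgeR 4.0.16 (R 4.3.3), a quasi-likelihood fit of 1 mean per group to the 14 libraries with TMM scaling. It covered the 11852 genes that filterByExpr kept with a minimum count of 10. Contrasts gave 5 comparisons, the interaction included, with Benjamini-Hochberg adjustment over all tested genes. A DEG met a fold change of 2 and an adjusted p under 0.05, and the interaction was read at the adjusted p alone. Intervals on fold changes are 95% Wald intervals of the fitted model, and counting intervals of pooled ratios and limits for a count of 0 cover counting error only. Simulated counts with known changes were used to test the scripts. Libraries of a group differed by more than sampling noise (chi-square per degree of freedom 2.32 to 20.6 over 19 pairs). Whether the libraries of a group came from separate litters is not given, so p values measure the spread between these mice.

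Named are all 10 chemokines, genes of fixed lists that met the DEG rule, the 3 genes nearest in pattern to Ccl3, Ccl5 and Ccl2, the deleted genes and Xist. Also named are some list genes with an adjusted p under 0.05 that fell short of 2-fold. Some genes are not reported here. The chemokines, lists and tests were chosen with earlier results of these data known, and the study itself picked most of these chemokines on these samples. Alternatives were RLE factors, DESeq2 1.42.0, limma 3.58.1 voom, other filters, only the groups compared, a replicate block, leaving out each library, Xist as a covariate, thinned counts, a test against 2-fold and no fold threshold. Counts for gene lists without WT + PBS replicate 1 or MyTrMaSt + CBE replicate 4 were added after seeing the data.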

Additional observations from a re-analysis of the deposited data

Results flagged for a closer look

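MyTrMaSt + CBE replicate 4 stood apart from the other 4 libraries of its group for 3 chemokines. The gap to the nearest library, as a part of the whole range of the group, was 0.914 for Ccl2, 0.801 for Ccl7 and 0.776 for Ccl3, each with replicate 4 highest. How often chance gives gaps of this size was not tested, and all 10 chemokines were examined. The same library also had the highest Cxcl1 and Cxcl10 and the lowest Ccl5, Ccl6, Ccl12 and Cxcl16 of its group, and it is the only MyTrMaSt library with 0 counts of Xist. Without it, the level of Ccl6 in MyTrMaSt + CBE passed the threshold against WT + CBE, and no chemokine called lower between these groups lost its call.

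The response to CBE differed between genotypes by the test of the difference itself for Ccl5 (-4.885 on the log2 scale) and Cxcl10 (-4.696). In WT mice every CBE library lay above every PBS library for both genes, and in MyTrMaSt mice the groups overlapped.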

How the results depend on the processing

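Of 972 values for single chemokines under the alternatives, 940 kept their direction and side of the threshold, 16 gained a call, 4 lost one and 12 changed sign. The changed signs belonged to values that were not called. Ccl5 in MyTrMaSt went from -0.03 to 0.00249 with a replicate block and 1.38e-05 with the Xist covariate, and ran from -0.444 to 0.323 as each library was left out. Between the PBS groups Ccl2 went to -0.0551 and Ccl3 to -0.975 in thinned libraries, and Ccl2 ran from -0.246 to 0.993 as each library was left out. In the interaction, Ccl3 went to 0.821 in thinned libraries, and Cxcl1 ran from -2.24 to 0.00288 as each library was left out.

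The number of called chemokines ran from 8 to 9 in WT, 6 to 8 in MyTrMaSt, 6 to 7 between the CBE groups, 0 to 1 between the PBS groups and 1 to 3 in the interaction as each library was left out. DESeq2 called 8 in MyTrMaSt (Cxcl1 and Cxcl10 added), 1 between the PBS groups (Ccl5) and 3 in the interaction (Ccl6 added). The interaction kept 1 with the Xist covariate (Ccl5) and 1 in thinned libraries (Cxcl10). It kept 1 without MyTrMaSt + PBS replicate 3 (Ccl5) and had 3 without WT + PBS replicate 1 (Cxcl16 added) or WT + PBS replicate 2 (Ccl6 added). The test against 2-fold left 5 in MyTrMaSt, and thinning left 5 between the CBE groups. A minimum of 10 counts in every library left no chemokine to test. The replicate numbers did not pair the libraries (18 pairs with the same number, r from -0.189 to 0.178, 3 over 0.1), and a replicate block gave 8, 6, 6, 0 and 2 called chemokines in the 5 comparisons, as without it.

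Counts over all genes moved more. In WT, 759 genes were called, 459 when only its groups were fitted, 325 against 2-fold and 1255 with no fold threshold. In MyTrMaSt, 461 were called, 292 with the replicate block, 118 against 2-fold and 919 with no fold threshold, and between the CBE groups 238 and 111 against 2-fold. Between the PBS groups 19 were called, and from 2 (only these groups) to 303 (without WT + PBS replicate 2) elsewhere. In the interaction 58 were called, 133 by DESeq2 and 9 with the Xist covariate. Depth limits the PBS levels most, where Ccl2, Ccl4, Ccl7 and Cxcl1 had at most 4 counts in any library.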
